A study of Mus musculus with 71 samples.

Results

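The Wnt ligands, their Frizzled and LRP receptors and the secreted proteins that block them were followed through 3 groups of mouse embryonic stem (ES) cells. The members were picked out by a rule on gene symbols: 19 Wnt genes, 10 Frizzled (Fzd) genes, Lrp5 and Lrp6, 6 genes for secreted Frizzled-related proteins (Sfrp1, Sfrp2, Sfrp4, Sfrp5, Frzb and Wif1, the last grouped with them here) and 4 Dickkopf (Dkk) genes, 41 of the 24222 genes in the count tables. The first group, called rescue, consisted of Ezh1/Ezh2 double-knockout cells in which wild-type EZH2 was expressed again. The second, dKO, carried knockouts of both Ezh1 and Ezh2. The third, WT, was wild type for both genes. Per the labels all 9 libraries, 3 per group, were polyA RNA from C57BL/6 cells kept on gelatin in 2i medium. The labels do not say whether dKO and rescue are single clones, what EZH2 was expressed from, or whether the 3 libraries of a group came from separate cultures. The p-values therefore speak of the spread among these libraries alone, and that spread may be technical.

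Wnt proteins are lipid-modified secreted signals that bind a Frizzled receptor together with the co-receptor Lrp5 or Lrp6. Binding stops the destruction of beta-catenin, which then enters the nucleus and acts with TCF/LEF factors on target genes. Secreted Frizzled-related proteins and Wif1 bind Wnt proteins outside the cell, whereas Dickkopf proteins such as Dkk1, though not every member of that family, bind the LRP co-receptors. Ezh1 and Ezh2 are alternative methyltransferases of Polycomb repressive complex 2 (PRC2), whose mark on histone H3 goes with silent genes. Wnt genes are classical Polycomb targets in ES cells. 2i medium contains an inhibitor of the kinase GSK3, which stabilises beta-catenin whether or not a Wnt ligand is bound, so in this medium beta-catenin does not depend on the ligands and receptors alone.

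Ezh1 was at 2.89, 2.33 and 3.42 CPM (counts scaled to a common library size with edgeR's TMM factors) in rescue, 2.34, 1.83 and 1.80 CPM in dKO and 53.4, 48.4 and 47.9 CPM in WT. Ezh2 was at 555, 576 and 549 CPM in rescue, 192, 191 and 214 CPM in dKO and 308, 314 and 310 CPM in WT. Ezh1 thus followed the labels, while Ezh2 transcripts were still counted in dKO, and reads outside a deleted part of the gene check nothing. Library totals ran from 12457622 to 36009529 counts. The summed level of 12 ES cell markers was 9968 to 10076 CPM in rescue, 7455 to 7531 CPM in dKO and 8408 to 8585 CPM in WT, and none of them was at 0. Markers of other cell types moved with the groups: 11 primitive endoderm markers summed to 85.8 to 93.7 CPM in rescue, 238 to 265 CPM in dKO and 80.2 to 83.8 CPM in WT, and 11 mesoderm markers to 52.0 to 57.6 CPM in rescue, 35.2 to 42.3 CPM in dKO and 17.7 to 19.2 CPM in WT, where Mesp1 was at 0. Trophoblast markers, 9 in number, summed to 82.1 to 83.7 CPM in rescue, 104 to 157 CPM in dKO and 55.0 to 63.6 CPM in WT, and 8 neural markers to 202 to 208 CPM in rescue, 194 to 228 CPM in dKO and 74.0 to 83.6 CPM in WT. Sums follow the most abundant genes of a list. Of the 8 tested mesoderm markers 2 rose and 4 fell in rescue against dKO (median log2 fold change -1.29), although the sum was higher in rescue. In dKO against WT 6 of these 8 rose and 2 fell. Of 9 tested trophoblast markers 6 rose and 2 fell there, and of 5 tested neural markers 3 rose and 1 fell. Over all tested genes 33.7% rose and 31.0% fell in dKO against WT. The part of cells of these types in the results on Wnt genes was not tested, and in bulk RNA fewer cells of a type and less RNA per cell cannot be told apart. Feeder (fibroblast) markers, 10 in number, summed to 3408 to 3893 CPM in rescue, 1842 to 2427 CPM in dKO and 3336 to 3649 CPM in WT, almost all of it Fn1, at 3595 ± 254 CPM in rescue, 2029 ± 311 CPM in dKO and 3453 ± 166 CPM in WT. In dKO against WT 4 of the 5 tested feeder markers rose and 1 fell. Dcn, Lum and Postn were at 0 in rescue, Col3a1 and Lum in dKO, and Col3a1, Dcn, Lum, Postn and Twist2 in WT. The 6 markers of 2-cell-like cells stayed under 1 CPM in sum. The third dKO library stood apart from the other 2 (chi-square per degree of freedom 23.9 and 23.8 against them, 5.70 between them), and counts are given without it below.

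Several ligands and inhibitors at low levels in WT were higher in dKO, while Fzd5, Fzd7 and Fzd10 were lower. Of the 27 members with enough counts to be tested, 18 rose and 5 fell at a Benjamini-Hochberg adjusted p under 0.05 in edgeR's quasi-likelihood test, and 4 were not called. Over all 14145 tested genes, 33.7% rose and 31.0% fell in this comparison. The median log2 fold change was 1.98 over the tested members, against -0.00 over all tested genes. In rescue against dKO 6 members rose, 13 fell and 8 were not called, where 32.1% of all tested genes rose and 38.2% fell, and the median was -0.33 over the members and -0.04 over all genes. In rescue against WT 11 rose, 3 fell and 13 were not called, where 26.8% of all tested genes rose and 27.3% fell, with medians of 0.59 and 0.00. These counts describe the members that passed the filter and not all 41, of which 14 were not tested. The filter asks for 3 libraries over a cutoff, and 7 members (Wnt3, Wnt4, Wnt6, Wnt7b, Wnt9a, Sfrp5 and Wif1) reached it only through their level in dKO, so they had to differ. All 7 rose in dKO against WT and fell in rescue against dKO, as did 94.7% and 94.6% of the 856 tested genes that passed in that way. Dkk1 and Wnt3a are among 147 genes that reached it only through rescue, of which 34.7% rose in dKO against WT and 64.6% in rescue against WT. Of the 18 members that needed no single group, 9 rose (50%), 5 fell and 4 were not called in dKO against WT, where 30.0% of the 13019 such genes rose and 33.2% fell, and the median log2 fold change was 0.36 over these members and -0.04 over these genes. In rescue against dKO 5 of the 18 rose and 6 fell, where 34.2% and 35.0% of such genes did, and in rescue against WT 9 rose and 3 fell, where 27.6% and 28.8% did. The difference from such genes was not tested. The 3 comparisons share their groups and are not independent of each other. Without the third dKO library 17 members rose and 5 fell in dKO against WT, 8 rose and 14 fell in rescue against dKO, and 13 rose and 5 fell in rescue against WT. Of all 14320 genes tested then, 5074 rose and 4744 fell, 4824 rose and 5768 fell, and 4321 rose and 4389 fell in these comparisons.

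Scaling by library totals alone shifted the median of all genes by 0.14 in dKO against WT and by -0.13 in rescue against dKO on the log2 scale. The share of called genes that were higher was then 66.2% in dKO against WT, where TMM gave 52.1%, and 34.4% in rescue against dKO, where TMM gave 45.6%. The members' counts in dKO against WT were 18 and 5 under both scalings.

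**Figure D1:**
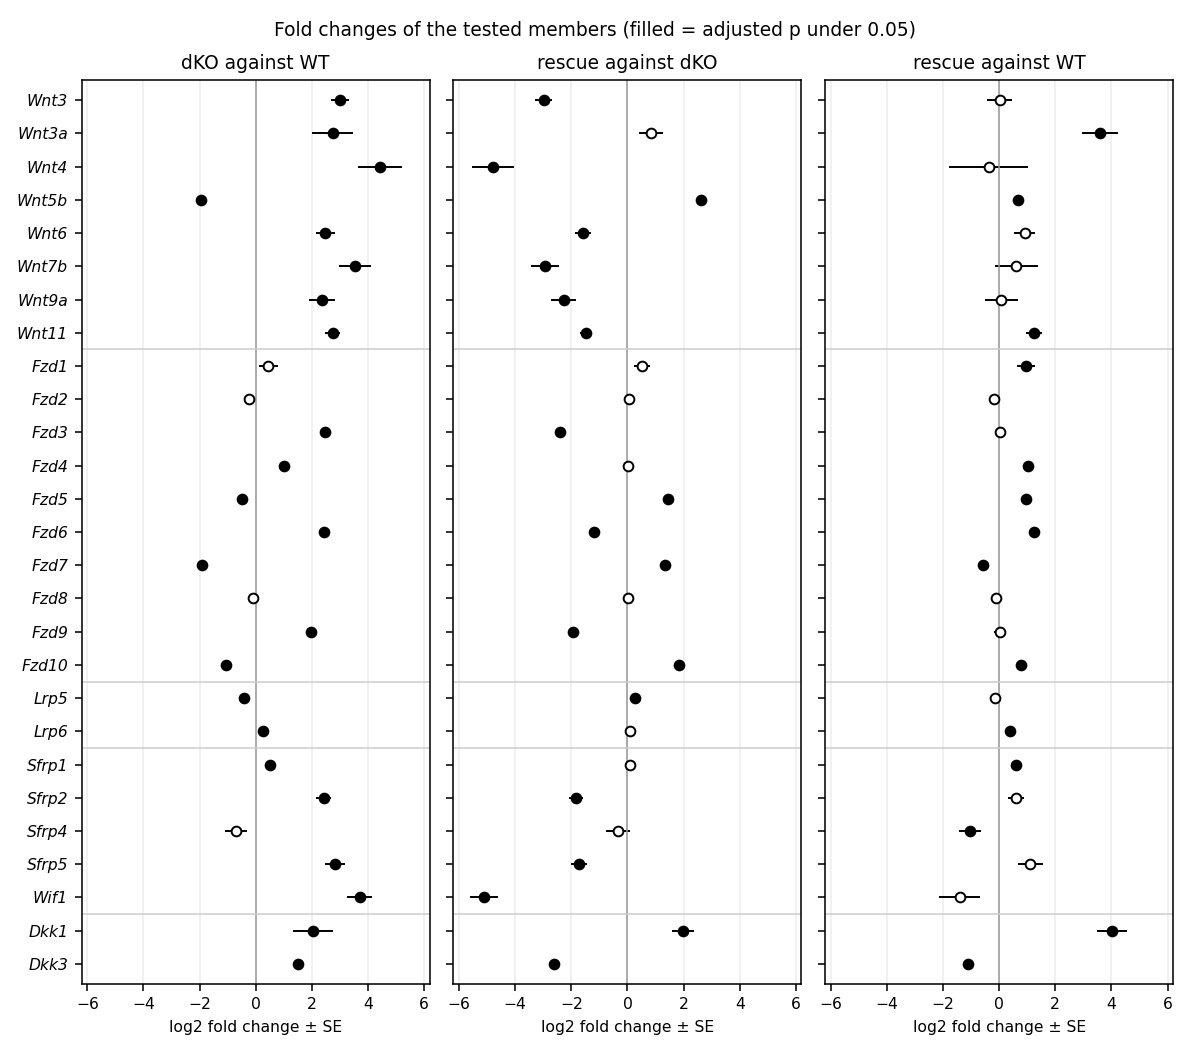
Log2 fold changes (x axis) with their standard errors for the 27 tested members (rows, by role) in dKO against WT, rescue against dKO and rescue against WT; filled points passed an adjusted p of 0.05 and open points did not. In dKO against WT 18 filled points lie right of 0 and 5 left of it, and Wnt5b, Fzd7, Fzd10, Fzd5 and Lrp5 are the 5; 7 of the 18 passed the filter only through dKO.

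Suz12, a core subunit of PRC2, was mapped by chromatin immunoprecipitation in wild-type ES cells of another strain background, 129B6F1, and 7480 peaks were deposited. Of the 41 members, 35 (85.4%) had a peak within 1 kb of the gene, whereas 5873 of 24089 placed genes did (24.4%). Among tested genes alone, 22 of the 27 members and 31.5% of all genes did. The 6 of the 41 without one were Dkk3, Dkk4, Fzd5, Fzd10, Sfrp4 and Wif1. These counts come from 1 peak list and carry no test. The widest peak of each member with a peak had a median width of 2128 bases, where the median of all single peaks was 1032 bases. These are unlike measures, since taking the widest raises the value for genes with several peaks. A peak wider than 1032 bases lay at 31 of the 41 members (75.6%) and at 13.7% of placed genes. Among tested genes alone it lay at 19 of the 27 members and at 16.8% of all genes. Wnt11 had the widest, 5101 bases at chr7:98834632-98839732 (mm10), from -480 to 4620 bases relative to its first annotated start in RefSeq. For 27 members the reference gave a start site, and 24 of these (88.9%) had a peak within 1 kb of it, as did 20.5% of the 17948 placed genes with a start site.

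**Figure D2:**
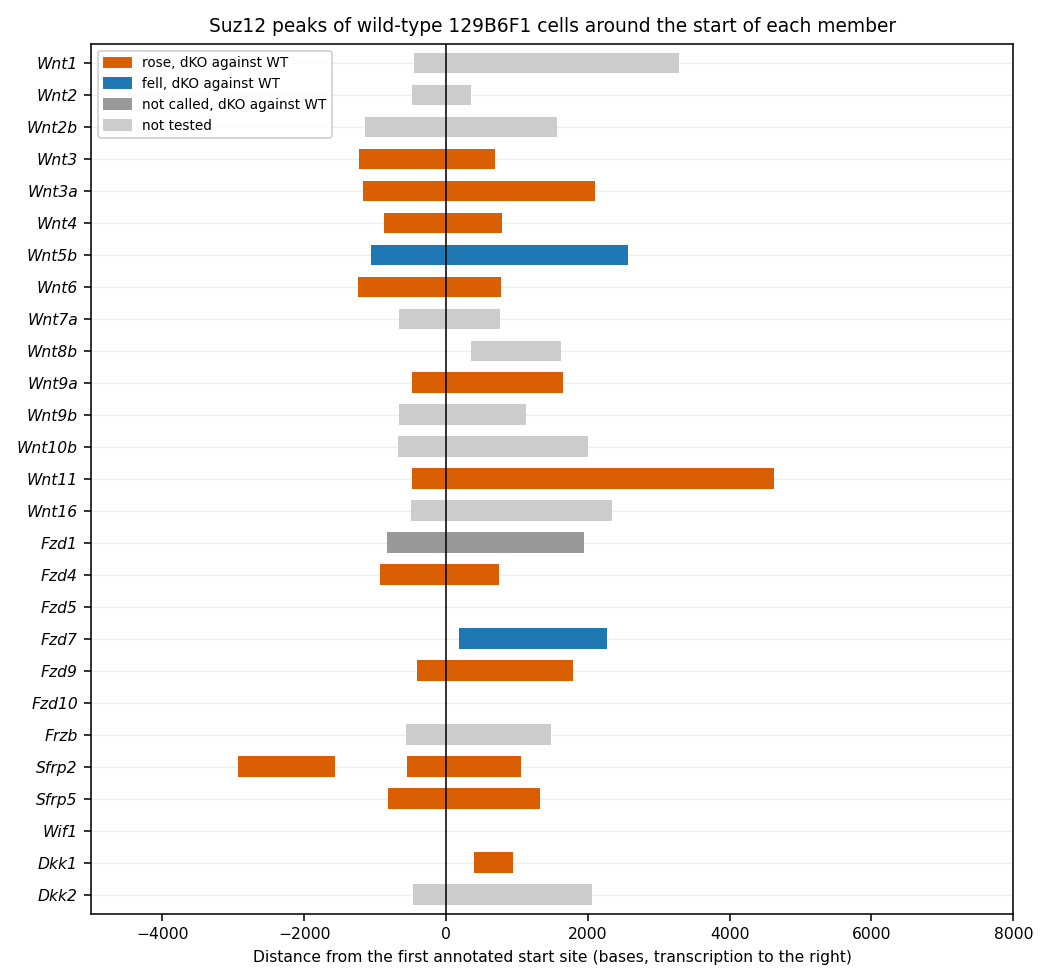
Suz12 peaks of wild-type 129B6F1 cells (bars) by distance in bases from the first annotated start site (x axis, transcription to the right) for the 27 members with a known start site, coloured by the call in dKO against WT. Peaks cover the start of most members, Fzd7, Dkk1 and Wnt8b have theirs downstream of it, and Fzd5, Fzd10 and Wif1 have none. The start is the first among the promoter windows, and for some members, such as Wnt9b and Wnt6, it lies well inside the annotated span of the gene.

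The promoter windows, 250 bases before to 50 bases after each annotated start, were taken from RefSeq on GRCm38.p6, the assembly behind mm10. Tables held 30 windows for 27 members, of which 22 lay under a Suz12 peak. The 4 printed first belong to the members with a peak over the window and the smallest adjusted p in dKO against WT, of which Wnt5b fell and Fzd9, Wnt11 and Fzd4 rose. The windows lie at chr6:119544298-119544597 (minus strand, Wnt5b), chr5:135250998-135251297 (minus strand, Fzd9), chr7:98834862-98835161 (plus strand, Wnt11) and chr7:89404116-89404415 (plus strand, Fzd4). Capitals mark each CG dinucleotide (CpG), of which there are 47, 53, 45 and 32 in 300 bases, all above the median of 28 for member windows under a peak, which run from 10 to 58.
Wnt5b: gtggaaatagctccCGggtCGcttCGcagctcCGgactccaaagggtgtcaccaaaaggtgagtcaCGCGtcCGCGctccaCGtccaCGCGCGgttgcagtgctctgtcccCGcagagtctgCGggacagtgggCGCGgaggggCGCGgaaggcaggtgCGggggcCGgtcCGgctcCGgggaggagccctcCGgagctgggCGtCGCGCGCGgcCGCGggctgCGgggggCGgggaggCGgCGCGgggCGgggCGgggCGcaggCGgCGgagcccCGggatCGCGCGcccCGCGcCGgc
Fzd9: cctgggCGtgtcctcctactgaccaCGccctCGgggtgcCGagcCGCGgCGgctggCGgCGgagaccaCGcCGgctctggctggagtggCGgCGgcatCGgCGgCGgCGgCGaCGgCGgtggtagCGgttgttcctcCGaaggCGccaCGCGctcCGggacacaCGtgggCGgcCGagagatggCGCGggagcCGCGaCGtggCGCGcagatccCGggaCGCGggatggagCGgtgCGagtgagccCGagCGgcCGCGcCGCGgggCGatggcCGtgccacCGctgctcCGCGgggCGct
Wnt11: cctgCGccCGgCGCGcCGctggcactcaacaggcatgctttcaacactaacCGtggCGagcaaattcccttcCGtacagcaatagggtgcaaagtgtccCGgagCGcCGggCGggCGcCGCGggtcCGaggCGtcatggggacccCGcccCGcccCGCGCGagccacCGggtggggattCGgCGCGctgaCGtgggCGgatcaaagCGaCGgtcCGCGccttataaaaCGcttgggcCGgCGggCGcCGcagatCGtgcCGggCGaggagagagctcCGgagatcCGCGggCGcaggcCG
Fzd4: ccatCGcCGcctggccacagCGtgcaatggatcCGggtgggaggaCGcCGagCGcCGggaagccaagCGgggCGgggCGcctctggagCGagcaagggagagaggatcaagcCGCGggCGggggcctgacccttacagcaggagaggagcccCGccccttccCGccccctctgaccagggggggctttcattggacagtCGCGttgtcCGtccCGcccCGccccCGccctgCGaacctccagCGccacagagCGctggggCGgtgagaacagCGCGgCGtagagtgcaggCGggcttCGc

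The other 3 windows belong to the members that had a window but no Suz12 peak at the gene, and were chosen after their values were seen. They lie at chr5:128600856-128601155 (plus strand, Fzd10), chr1:64737701-64738000 (minus strand, Fzd5) and chr10:121033754-121034053 (plus strand, Wif1), and hold 45, 38 and 25 CpG. Fzd10 and Fzd5 have more CpG in the window than Fzd4, which lies under a peak.
Fzd10: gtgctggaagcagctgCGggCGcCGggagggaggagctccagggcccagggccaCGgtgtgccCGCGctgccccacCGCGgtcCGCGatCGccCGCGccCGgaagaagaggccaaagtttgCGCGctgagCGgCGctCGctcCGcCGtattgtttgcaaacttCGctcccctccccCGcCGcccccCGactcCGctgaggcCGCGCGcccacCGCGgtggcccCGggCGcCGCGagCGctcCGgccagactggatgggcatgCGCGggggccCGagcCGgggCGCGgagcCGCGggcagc
Fzd5: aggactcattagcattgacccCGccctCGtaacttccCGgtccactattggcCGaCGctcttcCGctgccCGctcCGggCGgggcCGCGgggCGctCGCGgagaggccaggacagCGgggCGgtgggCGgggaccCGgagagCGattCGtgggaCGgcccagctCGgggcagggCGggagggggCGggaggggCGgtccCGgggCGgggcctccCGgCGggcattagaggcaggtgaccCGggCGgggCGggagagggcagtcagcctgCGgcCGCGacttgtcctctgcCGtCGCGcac
Wif1: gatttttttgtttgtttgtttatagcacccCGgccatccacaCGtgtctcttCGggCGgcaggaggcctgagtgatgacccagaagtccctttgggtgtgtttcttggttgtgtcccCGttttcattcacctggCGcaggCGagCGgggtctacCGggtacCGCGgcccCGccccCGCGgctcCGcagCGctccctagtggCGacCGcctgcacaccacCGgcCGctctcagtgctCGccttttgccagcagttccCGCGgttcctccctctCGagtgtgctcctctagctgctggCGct

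The median was 28 CpG over the 22 member windows under a peak and 16.5 over the 8 that were not, against 26 over all 4361 windows under a peak and 7 over all 32851 windows. A core bound by TCF/LEF factors was searched on both strands, either as CTTTGAA or with another ending, that is CTTTGAT or else CTTTGTA or else CTTTGTT. Any of these occurred in 5 of the 30 member windows (16.7%) and in 16.9% of all windows. The windows with a match belong to Wnt11, Wnt3, Fzd7, Dkk1 and another start of Wnt5b, not printed here, and that of Wnt11 lies at position 200 on the reverse strand, counted from the 5′ end of the printed window. A match is a description of the letters and not a site.

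Among all genes the calls differed with the peaks, and the members were set against that. Of the 22 tested members with a peak, 16 rose, 3 fell (Fzd7, Lrp5 and Wnt5b) and 3 were not called in dKO against WT, where 56.7% of all tested genes with a peak rose and 16.9% fell. Of the 5 without a peak, Dkk3 and Wif1 rose, Fzd5 and Fzd10 fell and Sfrp4 was not called, where 23.1% of all tested genes without a peak rose and 37.5% fell. In rescue against dKO 4 of the 22 members with a peak rose and 11 fell, shares of 18.2% and 50%, where 18.2% of all tested genes with a peak rose and 58.8% fell. The calls also differed with the level of the gene. Of 12 members with a peak and a mean under 5 CPM over the 9 libraries, 9 rose (75%), close to the 73.4% of all such genes. The filter fixed most of these 9 rises. Wnt3, Wnt4, Wnt6, Wnt7b, Wnt9a and Sfrp5 passed it only through dKO, and Dkk1 and Wnt3a only through rescue. They are also among the 16 risers with a peak, so both counts are a description. Of 10 members with a peak at or above 5 CPM, 7 rose (70%), against 46.6% of such genes, a difference of a few genes that was not tested.

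**Figure D3:**
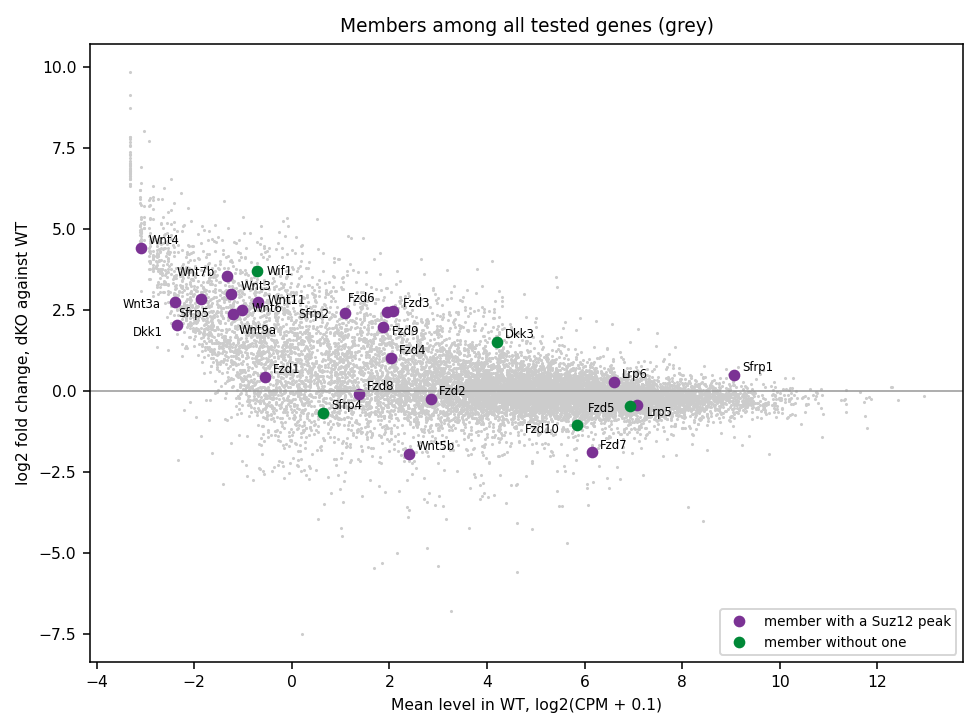
Log2 fold change in dKO against WT (y axis) by mean level in WT, as log2(CPM + 0.1) (x axis), for 14145 tested genes (grey) and the 27 tested members, coloured by whether they had a Suz12 peak. The members at the left, mostly Wnt ligands, lie above 0 as most grey points at that level do, and Wnt5b and Fzd7 lie among the lower points at theirs.

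The ligands were counted at low levels in every group. Of 19 Wnt genes 8 were tested, and in dKO against WT 7 rose and 1, Wnt5b, fell, where 33.7% of all tested genes rose and 31.0% fell. The filter fixed most of that count: Wnt3, Wnt4, Wnt6, Wnt7b and Wnt9a were tested only because they are high in dKO, and Wnt3a only because it is high in rescue, so their differences are given as a description. Wnt3, a canonical ligand needed for gastrulation, was at 0.343, 0.28 and 0.303 CPM in rescue, 2.86, 2.94 and 1.80 CPM in dKO and 0.413, 0.187 and 0.361 CPM in WT. All dKO libraries lay above all others, while rescue and WT overlapped. Its level was 7.97-fold higher in dKO than in WT (log2 fold change 2.99 ± 0.33 SE, n = 3 each) and 7.86-fold lower in rescue than in dKO.

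Wnt11, a ligand best known for planar polarity and convergent movement of cells, was at 1.43, 1.03 and 1.34 CPM in rescue, 3.32, 3.46 and 3.99 CPM in dKO and 0.344, 0.746 and 0.464 CPM in WT. The 3 groups did not overlap, with rescue between dKO and WT. It was 6.66-fold higher in dKO than in WT (edgeR adjusted p = 2.14e-06), 2.81-fold lower in rescue than in dKO and 2.37-fold higher in rescue than in WT (edgeR adjusted p = 0.00316). Its promoter, printed above, lies under the widest Suz12 peak of the members.

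Wnt7b, a ligand of epithelia and neurons, was at 0.314, 0.374 and 0.692 CPM in rescue, 2.26, 1.75 and 5.99 CPM in dKO and 0.344, 0.187 and 0.361 CPM in WT. The third dKO library was the highest of the 9. The rise in dKO against WT was 3.54 ± 0.58 SE on the log2 scale with that library and 2.73 without it, and the fall in rescue against dKO was -2.93 with it and -2.12 without it. Wnt6 and Wnt9a, a pair of ligands with roles in somites and joints, averaged 0.714 ± 0.3 and 0.378 ± 0.21 CPM in rescue, 2.28 ± 0.36 and 1.83 ± 0.68 CPM in dKO and 0.392 ± 0.042 and 0.331 ± 0.23 CPM in WT (SD, n = 3 each). Both rose in dKO against WT (log2 fold changes 2.48 and 2.36) and fell in rescue against dKO (-1.58 and -2.28), and neither was called in rescue against WT. Without the second rescue library Wnt6 was called there (1.14, edgeR adjusted p = 0.016).

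Wnt4, a ligand of kidney and gonad development, had 1 count in all in rescue, 0.452, 0.555 and 0.479 CPM in dKO, and 1 count in all in WT. The ratio of summed counts, 31 in dKO to 1 in WT, was 27.8 after adjustment for depth, with an exact 95% interval of 4.63 to 1133 that covers counting error only. The ratio of rescue to dKO was 0.025 (0.000615 to 0.15). The fitted log2 fold changes, 4.41 in dKO against WT and -4.79 in rescue against dKO, rest on those single counts: the value in dKO against WT was 6.49 without the third WT library, and that in rescue against dKO was -6.47 without the second rescue library and -4.14 without the first rescue library.

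Of the 8 tested ligands, Wnt3a and Wnt5b were those not lower in rescue than in dKO. Wnt3a, the canonical ligand commonly added to stem cell cultures, was at 1.11, 0.84 and 1.47 CPM in rescue, 0.301, 0.341 and 1.12 CPM in dKO and 0.0689, 0.0466 and 0.155 CPM in WT. Rescue was 12-fold higher than WT and dKO 6.66-fold higher than WT (edgeR adjusted p = 0.00577 in dKO against WT), while rescue and dKO overlapped through the third dKO library. Rescue against dKO was not called (log2 fold change 0.85, edgeR adjusted p = 0.0892) but was without that library (1.79, edgeR adjusted p = 0.00085). Without it the rise in dKO against WT was 1.79 on the log2 scale, where all libraries gave 2.74, and without the third WT library it was 3.39, and the rise in rescue against WT 4.23 in place of 3.58. The level in WT rests on 1, 1 and 3 counts, so the folds against WT are loosely set. Wnt3a was tested only because it is high in rescue, so its differences and their p-values are a description.

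Wnt5b, a ligand that mostly signals without beta-catenin, was at 9.03, 8.22 and 7.57 CPM in rescue, 1.51, 1.07 and 1.52 CPM in dKO and 5.3, 5.27 and 4.95 CPM in WT. The groups did not overlap, and their order was rescue, WT, dKO. It was 3.82-fold lower in dKO than in WT (log2 fold change -1.93 ± 0.17 SE, edgeR adjusted p = 1.13e-06), 6.13-fold higher in rescue than in dKO and 1.6-fold higher in rescue than in WT. It is the ligand that fell although a Suz12 peak of 3626 bases covers its start, the first of the printed promoters. The gene overlaps Fbxl14, which also fell in dKO against WT (log2 fold change -0.73) and rose in rescue against dKO (1.14). The libraries do not mark strand, so reads from the overlap cannot be told apart.

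**Figure D4:**
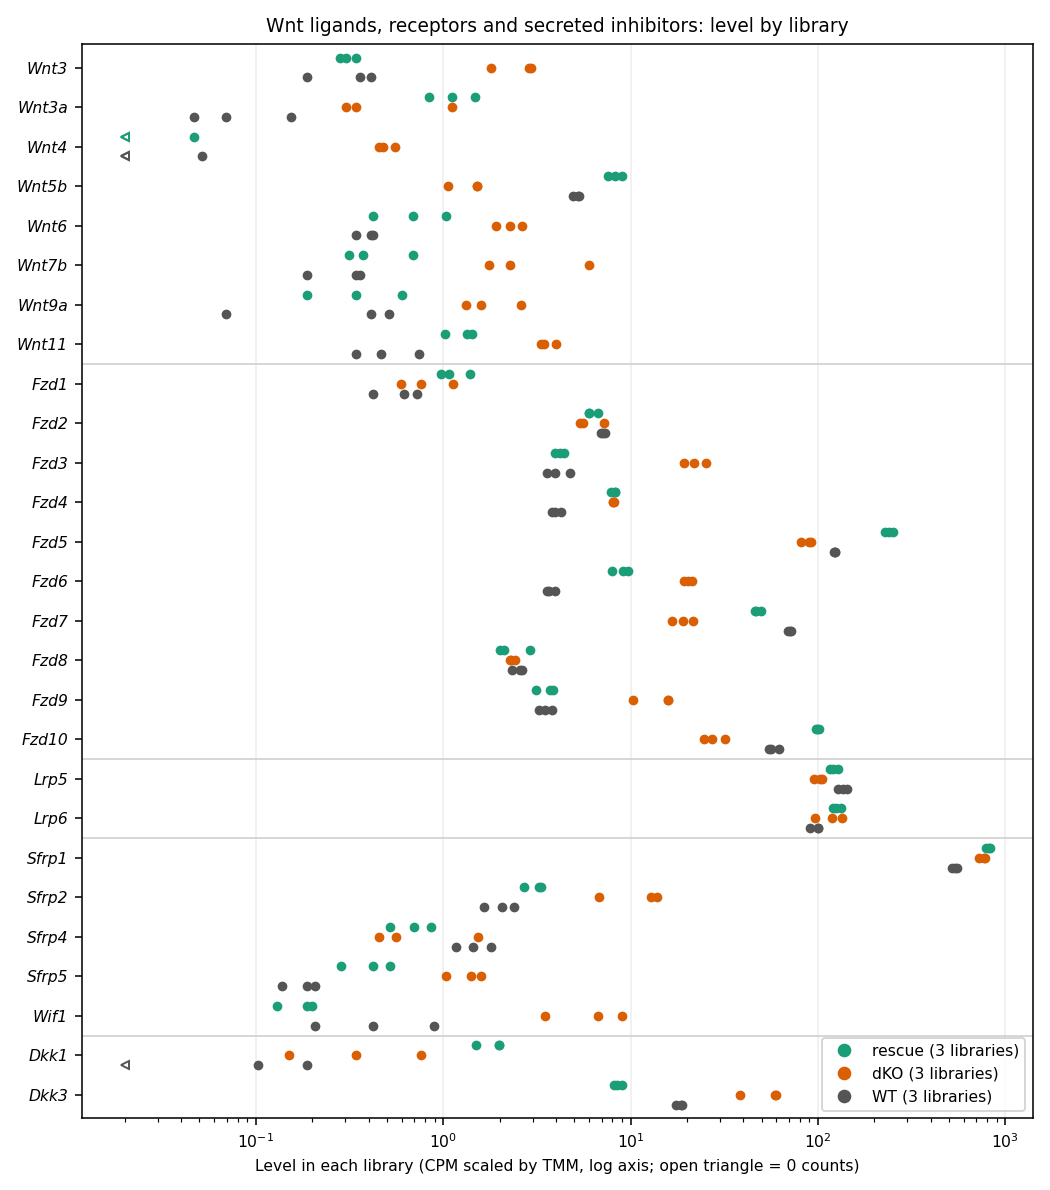
Level in each library (x axis, CPM scaled by TMM, log scale) for the 27 tested members (rows, by role), with rescue above dKO above WT in each row; open triangles mark libraries with 0 counts. For Wnt3, Wnt7b, Fzd3, Fzd9 and Wif1 the dKO points stand to the right of rescue and WT, and for Wnt5b, Fzd5, Fzd7 and Fzd10 they stand to the left.

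The other 11 ligands were not tested. They had at most 20 counts in any library, and their levels in dKO rest on few reads. Wnt9b had 0 counts in every rescue library, 1, 7 and 6 counts in dKO, and 0 counts in every WT library. It was at least 4.18-fold higher in dKO than in WT when 3 counts over the group are taken as the limit of a count of 0, and by the same limit at least 6.01-fold lower in rescue than in dKO. That limit leaves out the counting error of the 14 counts in dKO: the exact 95% interval of the ratio starts at 2.97 in dKO against WT and ends at 0.234 in rescue against dKO. Wnt9b and Wnt3 overlap at their starts, where reads cannot be assigned without strand, and a Suz12 peak reaches into that overlap. Wnt10b had 4, 0 and 0 counts in rescue, 7, 6 and 20 in dKO and 0, 0 and 2 in WT, and Wnt7a had 5, 4 and 0 in rescue, 5, 11 and 8 in dKO and 1, 0 and 0 in WT. The ratios of dKO to WT were 14.8 (exact 95% interval 3.78 to 127) for Wnt10b and 21.5 (3.51 to 885) for Wnt7a. Wnt5a, the founding member of the ligands that signal without beta-catenin, had 3, 1 and 3 counts in rescue, 9, 5 and 12 in dKO and 2, 2 and 1 in WT, and Wnt2b had 6, 3 and 4 in rescue, 7, 14 and 10 in dKO and 1, 6 and 2 in WT. Genes within 5 Mb of Wnt5a had a median log2 fold change of -0.80 in rescue against dKO, and those within 5 Mb of Wnt2b one of -0.69, and the part of that shift in their counts in rescue was not tested.

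Wnt8a had 9, 4 and 6 counts in rescue, 3, 2 and 6 in dKO and 6, 9 and 11 in WT. Wnt8b had 1, 1 and 0 counts in rescue, 4, 7 and 3 in dKO and 1, 2 and 3 in WT, and Wnt16 had 3, 3 and 1 in rescue, 2, 2 and 7 in dKO and 0, 2 and 0 in WT. Wnt10a had 4 counts in all in rescue, 8 in dKO and 8 in WT, and Wnt2 had 1 in rescue, 3 in dKO and 0 in WT. Wnt1, the ligand for which the pathway is partly named, had no count in rescue, 2 in dKO and none in WT. In a fit with no filter Wnt2b, Wnt5a, Wnt7a, Wnt9b and Wnt10b were called higher in dKO than in WT and Wnt8a lower (edgeR adjusted p = 0.0252), and this fit was an alternative to the one used here.

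Among the Frizzled receptors, all 10 of which were tested, 4 rose, 3 fell and 3 were not called in dKO against WT, shares of 40% and 30% beside the 33.7% and 31.0% of all genes. Fzd3, a receptor needed for axon tracts and planar polarity, was at 4.2, 4.39 and 3.93 CPM in rescue, 19.3, 25.4 and 21.7 CPM in dKO and 4.75, 3.59 and 3.97 CPM in WT. It rose 5.47-fold in dKO against WT (log2 fold change 2.45 ± 0.14 SE, edgeR adjusted p = 3.08e-08) and fell 5.32-fold in rescue against dKO, and rescue and WT overlapped. Fzd3 lies on chromosome 14 (chr14:65192441-65262463), whose genes were lower as a whole in rescue: the median log2 fold change of 465 genes on it was -0.78 in rescue against dKO and -0.84 in rescue against WT, and that of 73 genes within 5 Mb of Fzd3 was -1.06 and -0.89. The part of that shift in the level of Fzd3 in rescue was not tested. In dKO against WT the same 73 genes had a median of -0.01.

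Fzd6, a receptor of planar polarity in skin and hair, was at 9.06, 9.67 and 7.91 CPM in rescue, 21.2, 19.2 and 20.4 CPM in dKO and 3.58, 3.68 and 3.97 CPM in WT. The 3 groups did not overlap. It was 5.39-fold higher in dKO than in WT (edgeR adjusted p = 7.07e-09), 2.28-fold lower in rescue than in dKO and still 2.36-fold higher in rescue than in WT (edgeR adjusted p = 5.5e-06). Fzd9, a receptor with roles in bone and the hippocampus, was at 3.72, 3.13 and 3.85 CPM in rescue, 15.7, 15.9 and 10.3 CPM in dKO and 3.51, 3.26 and 3.82 CPM in WT, with rescue and WT overlapping. It rose in dKO against WT (log2 fold change 1.98 ± 0.18 SE) and fell in rescue against dKO (-1.95 ± 0.17 SE).

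Fzd4, the receptor for norrin in retinal vessels, was near the same level in rescue and dKO. It was at 8.23, 8.26 and 7.82 CPM in rescue, 8.06, 8.02 and 8.1 CPM in dKO and 3.79, 3.96 and 4.23 CPM in WT. It was 2.01-fold higher in dKO than in WT and 2.02-fold higher in rescue than in WT (edgeR adjusted p = 7.5e-06 and 1.37e-05), and rescue against dKO was not called (log2 fold change 0.01 ± 0.10 SE). Its promoter lies under a peak of 1675 bases and is among those printed. Fzd4 overlaps Tmem135, which fell in dKO against WT (log2 fold change -0.32), the other way.

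Fzd7, Fzd5 and Fzd10 were lowest in dKO. Fzd7, a receptor known for a role in ES cell self-renewal, was at 46.6, 46.3 and 49.7 CPM in rescue, 21.6, 19 and 16.7 CPM in dKO and 69.6, 71.9 and 70.8 CPM in WT. The groups did not overlap, and it was 3.74-fold lower in dKO than in WT (log2 fold change -1.90 ± 0.09 SE, edgeR adjusted p = 5.38e-09), 2.51-fold higher in rescue than in dKO and 1.49-fold lower in rescue than in WT. Fzd10 was at 101, 97.3 and 98.7 CPM in rescue, 24.6, 27 and 31.8 CPM in dKO and 62, 55 and 56.3 CPM in WT. Fzd5, a receptor with a role in the yolk sac and eye, was at 229, 251 and 239 CPM in rescue, 81.4, 89.5 and 92.3 CPM in dKO and 123, 123 and 122 CPM in WT. For both the groups did not overlap, dKO was lower than WT (log2 fold changes -1.05 ± 0.09 and -0.48 ± 0.06 SE) and rescue was higher than WT (0.78 ± 0.09 and 0.97 ± 0.06 SE). These 2 receptors had no Suz12 peak, and Fzd7 had one of 2084 bases that began 181 bases after its start.

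Fzd1, Fzd2 and Fzd8 were not called in dKO against WT, with log2 fold changes of 0.44 ± 0.34, -0.25 ± 0.13 and -0.10 ± 0.19 SE. Without the first dKO library Fzd2 was called lower (-0.38, edgeR adjusted p = 0.0239). Fzd1 rose in rescue against WT (0.96 ± 0.31 SE, edgeR adjusted p = 0.0216), a call that was lost without the third rescue library (edgeR adjusted p = 0.0796) or without the second WT library (edgeR adjusted p = 0.107). Fzd8 averaged 2.34 ± 0.49 CPM in rescue, 2.33 ± 0.071 CPM in dKO and 2.5 ± 0.16 CPM in WT. All 3 genes had a Suz12 peak wider than 2 kb.

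The LRP co-receptors went different ways in dKO against WT. Lrp5 was at 120, 117 and 127 CPM in rescue, 102, 106 and 95.1 CPM in dKO and 136, 128 and 142 CPM in WT. It was 1.34-fold lower in dKO than in WT (edgeR adjusted p = 0.00011) and 1.2-fold higher in rescue than in dKO (edgeR adjusted p = 0.00273), and the second call was lost when libraries were scaled by their totals alone (edgeR adjusted p = 0.0946). Rescue against WT was not called for Lrp5 (-0.16, edgeR adjusted p = 0.0555) but was without the third dKO library (edgeR adjusted p = 0.0162) or the second WT library (edgeR adjusted p = 0.0459). Lrp6 was at 121, 133 and 125 CPM in rescue, 96.9, 120 and 134 CPM in dKO and 100, 90.4 and 101 CPM in WT, and dKO and WT overlapped. Its rise of 0.27 ± 0.10 SE on the log2 scale in dKO against WT (edgeR adjusted p = 0.0317) was lost without dKO library 2 or 3, without WT library 1 or 2, or in a fit of dKO and WT alone, with edgeR adjusted p between 0.0551 and 0.131 in these 5 fits and between 0.00102 and 0.131 over all alternatives. Lrp6 rose in rescue against WT (0.38 ± 0.10 SE, edgeR adjusted p = 0.00691), and in rescue against dKO it was called only without the third dKO library (0.22, edgeR adjusted p = 0.0281).

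Of the secreted Frizzled-related proteins and Wif1, 5 of 6 were tested, and in dKO against WT 4 rose and Sfrp4 was not called. Over all tested genes 33.7% rose and 31.0% fell, and the filter fixed the rises of Wif1 and Sfrp5. Wif1, which binds Wnt proteins directly, was at 0.2, 0.187 and 0.13 CPM in rescue, 9.04, 6.7 and 3.47 CPM in dKO and 0.895, 0.42 and 0.206 CPM in WT. All dKO libraries lay above the others. It was 13-fold higher in dKO than in WT (log2 fold change 3.70 ± 0.44 SE) and 34.5-fold lower in rescue than in dKO. Like Sfrp5, it was tested only because it is high in dKO, so these folds are a description. Rescue, with 7, 4 and 3 counts, lay below WT, with 13, 9 and 4 counts, without overlap but near the limit of detection. The highest rescue library (0.2 CPM) was almost level with the lowest WT library (0.206 CPM). Rescue against WT was not called (edgeR adjusted p = 0.13), though it was without the third dKO library (edgeR adjusted p = 0.0372) and in DESeq2 (adjusted p = 0.0335). Wif1 was the inhibitor with no Suz12 peak whose promoter is printed above.

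Sfrp2, expressed widely in embryonic mesenchyme and neural tissue, was at 3.23, 2.71 and 3.33 CPM in rescue, 13.8, 12.9 and 6.79 CPM in dKO and 1.65, 2.38 and 2.06 CPM in WT. The groups did not overlap, and it was 5.33-fold higher in dKO than in WT (edgeR adjusted p = 8.75e-06) and 3.54-fold lower in rescue than in dKO (edgeR adjusted p = 3.16e-05). It lies on chromosome 3, where the median log2 fold change of 651 genes was -0.43 in rescue against dKO and -0.40 in rescue against WT, and the part of that shift in its level was not tested. Rescue against WT was not called for Sfrp2 (log2 fold change 0.59, edgeR adjusted p = 0.106), but was without the third dKO library (edgeR adjusted p = 0.00539). Sfrp5, an inhibitor of the foregut, rose in dKO against WT (log2 fold change 2.83 ± 0.37 SE) and fell in rescue against dKO (-1.72 ± 0.29 SE), with means of 0.408 ± 0.12 CPM in rescue, 1.34 ± 0.28 CPM in dKO and 0.177 ± 0.035 CPM in WT. Its difference in rescue against WT (1.10, edgeR adjusted p = 0.0523) was called without the third dKO library (edgeR adjusted p = 0.0491) or the first rescue library (edgeR adjusted p = 0.0327).

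Sfrp1 was counted at high levels in every library, at 784, 828 and 822 CPM in rescue, 771, 783 and 724 CPM in dKO and 550, 541 and 517 CPM in WT. Rescue and dKO lay above WT, by 1.51-fold and 1.42-fold (edgeR adjusted p = 3.46e-06 and 5.45e-06), and rescue against dKO was not called (log2 fold change 0.10 ± 0.05 SE). Sfrp4 was at 0.857, 0.7 and 0.519 CPM in rescue, 0.452, 1.54 and 0.559 CPM in dKO and 1.79, 1.17 and 1.44 CPM in WT. It fell in rescue against WT (log2 fold change -1.02 ± 0.39 SE, edgeR adjusted p = 0.0439), a call lost when any 1 rescue or WT library was left out, with edgeR adjusted p between 0.0534 and 0.133, and in DESeq2 (adjusted p = 0.0527). In dKO against WT it was not called with all libraries (-0.69) but was without the second dKO library (-1.46, edgeR adjusted p = 0.00373). The 40 genes within 5 Mb of Sfrp4 had a median log2 fold change of -0.38 in rescue against WT. The part of that shift in the level of Sfrp4 in rescue was not tested. Frzb had too few counts to be tested, with none in rescue, 2, 2 and 10 in dKO and 0, 0 and 1 in WT.

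The Dickkopf inhibitors differed from each other. Dkk3, a divergent member of the family, was at 8.43, 9.01 and 8.13 CPM in rescue, 58.7, 59.6 and 38.6 CPM in dKO and 18.7, 18.9 and 17.4 CPM in WT. The groups did not overlap. It was 2.84-fold higher in dKO than in WT (edgeR adjusted p = 2.72e-06), 6.12-fold lower in rescue than in dKO (edgeR adjusted p = 3.71e-08) and 2.15-fold lower in rescue than in WT (edgeR adjusted p = 0.000119). No Suz12 peak lay within 1 kb of it.

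Dkk1, which blocks LRP co-receptors and is itself a known target of beta-catenin, was highest in rescue, at 1.97, 1.49 and 1.99 CPM, against 0.151, 0.341 and 0.759 CPM in dKO and 0, 0.187 and 0.103 CPM in WT. Rescue was 16.2-fold higher than WT (log2 fold change 4.02 ± 0.54 SE) and 3.94-fold higher than dKO, and did not overlap either. These folds rest on few reads, 0, 4 and 2 counts in WT and 2, 8 and 19 in dKO. Dkk1 was tested only because it is high in rescue, so these folds are a description. Without the second WT library the log2 fold change of rescue against WT was 4.83, and without the third dKO library that of rescue against dKO was 2.74 in place of 1.98. The rise in dKO against WT (2.04 ± 0.71 SE, edgeR adjusted p = 0.0233) came with overlapping groups and was lost without the third dKO library (1.28, edgeR adjusted p = 0.144), the first WT library (1.61, edgeR adjusted p = 0.0635) or the third WT library (2.01, edgeR adjusted p = 0.0627), and was 2.85 without the second WT library. Dkk2 had no count in rescue or dKO and 1 in WT, and Dkk4 had 2 in rescue, none in dKO and 1 in WT.

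Some members lie side by side in the genome. Wnt6 and Wnt10a are 6.7 kb apart, Wnt3a and Wnt9a 16.1 kb, and Wnt10b and Wnt1 11.7 kb. Wnt3a and Wnt9a both rose in dKO against WT, but in rescue against dKO Wnt9a fell while Wnt3a did not pass the test (log2 fold changes -2.28 and 0.85). Among 19 Wnt genes the widest peak was 2 kb or more at Wnt1, Wnt2b, Wnt3, Wnt3a, Wnt5a, Wnt5b, Wnt6, Wnt7b, Wnt9a, Wnt10b, Wnt11 and Wnt16. Over all members with a widest peak of 2 kb or more 9 of 14 tested genes rose and 2 fell in dKO against WT, where 71.3% of the 882 such genes rose and 10.4% fell. With a narrower one 7 of 8 rose and 1 fell, where 53.0% of the 3563 such genes rose and 18.5% fell. Wnt3, Wnt6, Wnt7b, Wnt9a and Sfrp5 in the wider class and Wnt4 in the narrower one passed the filter only through dKO. Wnt3a in the wider class and Dkk1 in the narrower one passed it only through rescue, so these counts are a description.

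The rest of the pathway was counted in lists of genes with known roles, given here beside the background shares above. Among secreted and surface antagonists other than the members, 9 of 14 genes were tested, and in dKO against WT 7 rose and 1 fell. Dkkl1, a relative of the Dickkopf genes, averaged 5.45 ± 0.52 CPM in rescue, 25.6 ± 3.4 CPM in dKO and 4.41 ± 0.22 CPM in WT (SD, n = 3 each). Igfbp4 was at 14.5 ± 0.66 CPM in rescue, 16.6 ± 1.3 CPM in dKO and 3.72 ± 0.5 CPM in WT, and Kremen1, a receptor for Dickkopf proteins, at 20.6 ± 1.7 CPM in rescue, 39.9 ± 1.5 CPM in dKO and 15.4 ± 1.9 CPM in WT. In rescue against dKO 2 of the list rose and 6 fell, Draxin among those that fell (log2 fold change -2.15 ± 0.21 SE), and in rescue against WT 3 rose and 2 fell. The antagonist that fell in dKO against WT was Notum, an enzyme that removes the lipid from Wnt proteins (-1.48 ± 0.19 SE), named after its values were seen. Tpbg was not called in dKO against WT (-0.27 ± 0.12 SE) and rose in rescue against dKO (0.97 ± 0.11 SE).

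R-spondins are secreted proteins that keep Frizzled receptors at the surface by way of Lgr receptors and the ubiquitin ligases Znrf3 and Rnf43. Of 9 genes in this list 7 were tested, and 6 rose and none fell in dKO against WT. Rspo4 averaged 0.0335 ± 0.03 CPM in rescue, 2.49 ± 0.5 CPM in dKO and 0.0794 ± 0.096 CPM in WT, from 3 counts in rescue, 150 in dKO and 5 in WT. Lgr6 was at 0.264 ± 0.069 CPM in rescue, 1.86 ± 0.28 CPM in dKO and 0.379 ± 0.15 CPM in WT. Both passed the filter only through dKO, as did genes of which 94.7% rose in dKO against WT, so their part in the 6 risers is a description. In rescue against dKO 1 rose and 4 fell, and the riser was Rspo2, named after its values were seen, at 0.781 ± 0.34 CPM in rescue, 0.389 ± 0.12 CPM in dKO and 0.0884 ± 0.018 CPM in WT, which passed the filter only through rescue. In rescue against WT 4 rose and none fell, among them Rspo1 (log2 fold change 2.15 ± 0.48 SE). Znrf3 was not called in dKO against WT (0.42 ± 0.18 SE).

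Wnt secretion needs Porcn, which adds the lipid, and Wls, which carries the protein to the surface. Of 8 genes for lipidation and secretion none rose and 4 fell in dKO against WT, 3 rose and none fell in rescue against dKO, and 1 rose and 1 fell in rescue against WT. Porcn averaged 12.4 ± 0.64 CPM in rescue, 4.05 ± 0.37 CPM in dKO and 4.95 ± 0.34 CPM in WT, and rose in rescue against dKO (log2 fold change 1.61 ± 0.12 SE) and against WT (1.32 ± 0.11 SE). Wls fell in dKO against WT (-0.31 ± 0.07 SE) and in rescue against WT (-0.39 ± 0.07 SE). Alternative Wnt receptors and glypicans, 9 of 11 of them tested, had 2 that rose and 5 that fell in dKO against WT, 2 and 5 in rescue against dKO, and 1 and 6 in rescue against WT. Ptk7, a co-receptor of planar polarity, averaged 205 ± 3.0 CPM in rescue, 141 ± 2.1 CPM in dKO and 243 ± 3.6 CPM in WT, and the glypican Gpc1 20.2 ± 3.0 CPM in rescue, 86.4 ± 5.3 CPM in dKO and 22.7 ± 3.9 CPM in WT. Ror1, a receptor of Wnt5a, was at 0.291 ± 0.034 CPM in rescue, 0.176 ± 0.088 CPM in dKO and 0.986 ± 0.094 CPM in WT, and passed the filter only through WT.

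Inside the cell calls ran both ways. Of 15 genes of the beta-catenin destruction complex and Dishevelled, 3 rose and 5 fell in dKO against WT, 6 rose and 4 fell in rescue against dKO, and 3 rose and 6 fell in rescue against WT. Csnk1a1, a kinase of the complex, averaged 500 ± 7.3 CPM in rescue, 351 ± 17 CPM in dKO and 566 ± 16 CPM in WT, and Btrc, a ubiquitin ligase subunit for beta-catenin, 64.6 ± 0.59 CPM in rescue, 117 ± 1.6 CPM in dKO and 73.5 ± 3.6 CPM in WT. Ctnnb1, which encodes beta-catenin, fell by 0.25 on the log2 scale in dKO against WT and rose by 0.78 in rescue against dKO. Of 15 TCF/LEF factors and nuclear cofactors, 4 rose and 6 fell in dKO against WT, 5 rose and 4 fell in rescue against dKO, and 5 rose and 3 fell in rescue against WT. Tle4, a corepressor, averaged 247 ± 13 CPM in rescue, 73.5 ± 17 CPM in dKO and 124 ± 5.1 CPM in WT, and Ctbp2, another, 304 ± 11 CPM in rescue, 167 ± 16 CPM in dKO and 257 ± 9.9 CPM in WT. Tcf7 was not called in dKO against WT (log2 fold change -0.13). Of 14 tested planar polarity genes 7 rose and 5 fell in dKO against WT, 5 rose and 7 fell in rescue against dKO, and 4 rose and 4 fell in rescue against WT. Prickle1 rose in dKO against WT (2.60 ± 0.16 SE) and fell in rescue against dKO (-1.67 ± 0.14 SE), and Dact2 fell (-0.81 ± 0.06 SE) and rose (0.88 ± 0.06 SE) in the same comparisons.

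Direct response genes of beta-catenin ran both ways in dKO against WT, where 5 of 15 tested rose and 6 fell. Sp5, a target induced in most Wnt-responsive cells, averaged 34.4 ± 2.5 CPM in rescue, 2.09 ± 0.57 CPM in dKO and 8.42 ± 0.68 CPM in WT, and Axin2, a target that feeds back on the pathway and was named after its values were seen, 96.1 ± 1.5 CPM in rescue, 36.8 ± 9.4 CPM in dKO and 61.2 ± 4.5 CPM in WT. Nkd1, also a feedback gene, went the other way, at 2.76 ± 0.17 CPM in rescue, 7.74 ± 0.25 CPM in dKO and 1.25 ± 0.15 CPM in WT. In rescue against dKO 6 of the list rose and 3 fell, and in rescue against WT 8 rose and 1 fell, T among the risers (log2 fold change 1.70 ± 0.22 SE). Ccnd1 was not called in dKO against WT (0.11).

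**Figure D5:**
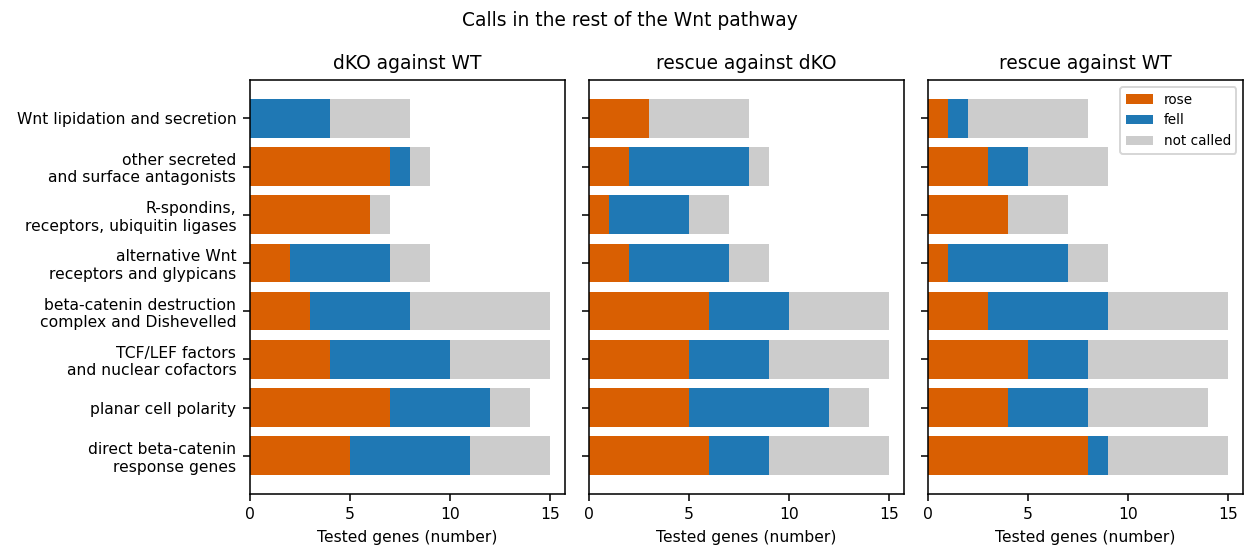
Number of tested genes (x axis) that rose, fell or were not called (adjusted p of 0.05) in each list of the wider Wnt pathway, for dKO against WT, rescue against dKO and rescue against WT. In dKO against WT 7 of 9 antagonists, 6 of 7 R-spondin genes and none of the secretion genes rose, where 33.7% of all tested genes did. Of the 6 R-spondin risers, Rspo4 and Lgr6 passed the filter only through dKO and Rspo2 only through rescue.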

How the data were processed

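RNA of 9 libraries was analysed, along with 1 Suz12 peak list; the other ChIP samples were not analysed here, 2 of them because their titles and antibody labels disagree. The RNA values are whole-number read counts that the authors deposited for each gene, with no normalization. The submitters' processing notes name Trimmomatic, STAR 2.4.0, HTSeq and mm10, and per the labels' protocols the TruSeq RNA Library Prep Kit v2 was used, which does not mark strand. How reads were counted, on which annotation, and how peaks were called was not given in the sources used here, and reads of overlapping genes cannot be told apart. The deposited peak list gives coordinates with no score or other values.

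Counts were tested in R 4.3.3 with edgeR 4.0.16, after TMM scaling and filterByExpr (minimum count 10, by group). A robust quasi-likelihood fit held all 9 libraries, with 6 residual degrees of freedom; tests were two-sided, with Benjamini-Hochberg adjustment over 14145 genes, and a gene was called under an adjusted p of 0.05. SE is the size of the log2 fold change divided by the square root of its F statistic. These steps were tested on simulated data. Genes were placed on GRCm38.p6: 22859 matched by symbol, a further 1230 through a synonym, and 133 had no match. Coordinates are 1-based. A peak counted when it overlapped a gene or the 1 kb on either side by at least 1 base. DESeq2 1.42.0 was an alternative. In the lists outside the members, up to 3 called genes with the smallest adjusted p and 1 uncalled gene per list and comparison were eligible to be named. Members and lists were chosen with earlier results of these data known. No 2 libraries of a group agreed within sampling noise (chi-square per degree of freedom 2.21 to 23.9), so none was treated as a repeat. The limit that a count of 0 allows (3 counts of the total, before TMM) lay between 0.0833 and 0.241 CPM; intervals and limits cover counting error only.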

Additional observations from a re-analysis of the deposited data

How the results depend on the processing

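Across 17 alternative fits per comparison no called gene changed direction, and of 1335 values of tested members 1298 kept their side of the threshold, 18 lost and 19 gained a call; 28 values of uncalled genes changed sign. Every alternative that tested them gave the same call for 16 of 18 risers (not Dkk1, Lrp6) and 5 of 5 fallers in dKO against WT, 5 of 6 risers (not Lrp5) and 13 of 13 fallers in rescue against dKO, and 10 of 11 risers (not Fzd1) and 2 of 3 fallers (not Sfrp4) in rescue against WT. The 7 members tested only through dKO are among these risers in dKO against WT and fallers in rescue against dKO. Dkk1 and Wnt3a, tested only through rescue, are among the risers in rescue against WT. The filter fixed the calls of those 7. Of the 147 genes that passed only through rescue, 64.6% rose and none fell in rescue against WT. The stability of the calls of all these members therefore adds no support. Requiring a mean of at least 2 CPM left 16 members tested, with 9 risers in dKO against WT, 6 fallers in rescue against dKO and 7 risers in rescue against WT. Of the 11716 genes tested then, 3799 rose, 4330 fell and 3440 rose in these comparisons. With no filter 20 of 41 fell in rescue against dKO, as did 5847 of all 18729 genes. Counting only changes over 2-fold left 3 fallers in dKO against WT and 5 risers in rescue against WT, and all genes were not counted at that limit. Leaving out 1 library at a time gave 17 to 21 risers and 5 to 6 fallers in dKO against WT, 6 to 8 and 13 to 16 in rescue against dKO, and 10 to 13 and 2 to 5 in rescue against WT. Over all genes these ranges were 4477 to 5074 and 3894 to 4744, 4148 to 4824 and 5017 to 5768, and 3159 to 4321 and 3298 to 4389. With the replicate block 18 rose and 5 fell in dKO against WT, 7 and 13 in rescue against dKO and 11 and 4 in rescue against WT, the added calls being Wnt3a (0.95, adjusted p = 0.0187) and Wif1 (-1.52, adjusted p = 0.0092) in edgeR. Libraries with the same number correlated at -0.112 to 0.201 in their deviations, others at -0.275 to 0.186, so the numbers do not pair the samples. Members with a peak stayed at 35 with the gene body alone, 5 kb on either side or an overlap of 200 bases. Ligands near the limit of detection rest on few reads.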
